A study of Mus musculus with 36 samples.

Results

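Pool 1 was the smallest of the 3 pools in which PAX6 chromatin immunoprecipitation was followed by sequencing (ChIP-seq), and it gave 491 peaks of the 3254 peaks in all lists of the study. These members are every peak called on 4 merged PAX6 ChIP libraries against the 4 input libraries that carry the same pool label, with no choice by score. The cells were enteric precursor cells (EPCs) from the ganglionic bowel of CD-1 mice at postnatal day 7, grown in culture as aggregates called neurosphere-like bodies. The other lists came from the same kind of culture: pool 2 (6 PAX6 ChIP and 6 input libraries, 1032 peaks), pool 3 (6 PAX6 ChIP and 6 input libraries, 724 peaks) and mouse IgG, the negative control antibody (4 libraries, all labelled pool 1, 1007 peaks). The labels name no mutant or treated group. Each list merges its libraries, so no value between replicates within pool 1 could be had, and the depth behind the list is not known from the files. The files hold no expression values, so the labelled cell type could not be checked against its markers.

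PAX6 is a transcription factor with a paired domain and a homeodomain, best known for its part in the development of eye, brain and endocrine pancreas. The paired domain binds a long site with the core TTCACGC, and the homeodomain binds pairs of TAAT and ATTA that face each other. EPCs descend from the neural crest and give rise to neurons and glia of the gut wall, and failure of this lineage to fill the gut causes Hirschsprung disease, in which RET and EDNRB are central receptors.

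A tandem repeat with a unit of 1 to 6 bp over at least 20 bp lay in 314 of 489 peaks (64.2%). Windows of the same widths on the same chromosomes gave 14.3%. The share was higher in every other list, with 79.3% in pool 2, 69.7% in pool 3 and 72.6% in IgG. The printed stretches are parts of peaks, and those of Chi3l3, Speer5-ps1 and Ednrb were cut around their longest repeat. The stretches below show the leading peak (Pde3a), a leading peak with a long CT repeat (Chi3l3), 4 of the 11 peaks that recur in another pool (Speer5-ps1, Gng4, Brd3 and Smad9) and a peak near a gene of the disease (Ednrb), all from the mm9 plus strand, with the longest uninterrupted repeat of 2 alternating bases in capitals where it reached 20 bp.
Pde3a, chr6:141057302-141057501: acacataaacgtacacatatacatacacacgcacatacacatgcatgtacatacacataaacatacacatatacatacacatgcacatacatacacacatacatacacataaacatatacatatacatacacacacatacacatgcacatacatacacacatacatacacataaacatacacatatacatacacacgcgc
Chi3l3, chr3:106018491-106018616: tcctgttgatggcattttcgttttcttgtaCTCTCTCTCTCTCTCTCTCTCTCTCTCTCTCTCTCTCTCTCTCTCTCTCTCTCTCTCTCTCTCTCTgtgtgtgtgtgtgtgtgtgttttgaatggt
Speer5-ps1, chr10:43891919-43892064: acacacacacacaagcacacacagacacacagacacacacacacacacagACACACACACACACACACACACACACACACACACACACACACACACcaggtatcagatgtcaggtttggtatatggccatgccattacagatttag
Gng4, chr13:13845389-13845588: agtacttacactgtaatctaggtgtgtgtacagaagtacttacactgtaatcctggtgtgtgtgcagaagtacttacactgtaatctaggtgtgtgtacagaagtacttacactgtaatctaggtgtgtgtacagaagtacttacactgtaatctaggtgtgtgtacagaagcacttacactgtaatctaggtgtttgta
Brd3, chr2:27332780-27332979: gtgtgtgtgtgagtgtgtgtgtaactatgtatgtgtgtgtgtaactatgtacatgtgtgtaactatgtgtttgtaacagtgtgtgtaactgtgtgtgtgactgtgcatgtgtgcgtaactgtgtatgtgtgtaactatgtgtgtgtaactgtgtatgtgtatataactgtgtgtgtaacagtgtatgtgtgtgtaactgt
Smad9, chr3:54572952-54573162: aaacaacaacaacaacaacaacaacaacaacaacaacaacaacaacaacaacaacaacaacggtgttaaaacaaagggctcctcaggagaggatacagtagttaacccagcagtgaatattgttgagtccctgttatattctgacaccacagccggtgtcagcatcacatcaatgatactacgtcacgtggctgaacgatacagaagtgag
Ednrb, chr14:104263918-104264020: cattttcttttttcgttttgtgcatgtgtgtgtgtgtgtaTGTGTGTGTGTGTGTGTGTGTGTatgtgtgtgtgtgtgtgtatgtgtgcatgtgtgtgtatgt

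The highest scoring peak, with a score of 112.52, lay 140 kb upstream of Pde3a, a phosphodiesterase gene, and its centre was built of CA-rich blocks with no perfect repeat of 20 bp. The score is 10 times the negative log10 of the peak caller's p-value, and it is ranked within each list only. A score of 108.8 was shared by 3 peaks, in an intron of Fut9, which encodes a fucosyltransferase, 11.9 kb upstream of the non-coding gene Gm17529 and on an unplaced part of the Y chromosome. The next peak, with 105.15, lay 199 kb from the start of Cdh26, a cadherin gene. A score of 104.81 belonged both to an intron of Chi3l3, a chitinase-like gene expressed by macrophages, and to a peak 339 kb from Sall3. The Chi3l3 peak held the 66 bp run of alternating C and T shown above. Below these came an intron of Ddo with 101.91, an intron of Plcl1, a phospholipase C-like gene, with 99.41, and an intron of Spock1, a proteoglycan gene, with 95. Of these 10 leading peaks, 3 overlapped an IgG peak, those near Sall3, in Ddo and in Spock1, and none overlapped a peak of pool 2 or pool 3. Only 8 peaks scored 100 or more. The lowest score was 50.12, at a peak of chromosome X near Gm15068, and the 2 next lowest peaks lay near Gm11189, with 50.16, and Plg, the plasminogen gene, with 50.24, a score that 1 other peak shared.

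Scores varied little and were often tied. The median was 62.05 (quartiles 56.92 and 67.66), and 210 of the 491 peaks scored under 60. Only 301 different scores occurred, and 262 peaks (53.4%) shared their score with at least 1 other peak. The commonest score, 67.66, belonged to 24 peaks of 347 to 399 bp. Many peaks shared both score and width. For instance, all 4 peaks that scored 63.26 were 466 bp wide, all 4 that scored 59.63 were 529 bp wide, and 4 of 598 bp scored 56.15. Both score and width were the same as in another peak for 143 peaks (29.1%). Among the 294 peaks of 404 to 598 bp, 161 (54.8%) lay within 0.1 of the curve that joins these shared points. The curve was drawn only through shared points whose score falls as width grows. The fall among these 161 peaks was therefore set by that choice.

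**Figure D1:**
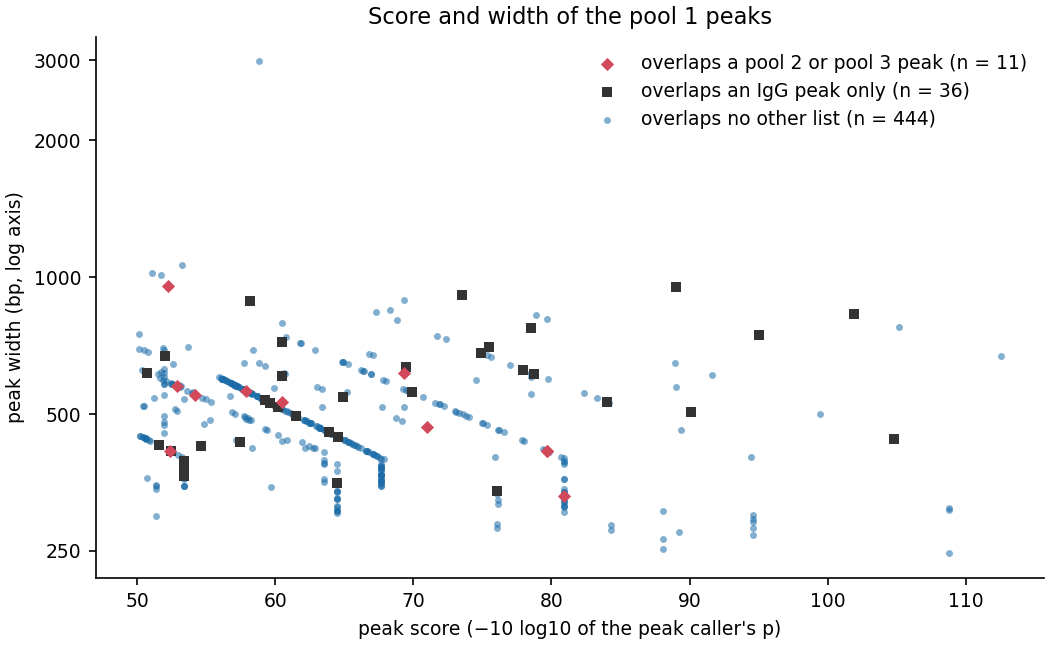
Score (horizontal axis) against width in bp (vertical log axis) for each of the 491 pool 1 peaks, by what they overlap. Many peaks stand in columns of equal score or share both score and width. The 11 peaks that recur in another pool score from 52.23 to 80.89, below the top of the list.

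Widths ran from 247 to 2985 bp, with a median of 496 bp (quartiles 408 and 574.5). The widest peak, chrX:3220072-3223056, lay 16.3 kb upstream of the pseudogene Gm14352 and scored only 58.8. Of its 32-base words, 89.98% were also found elsewhere in mm9. The next widest covered 1065 bp near Gm14951, also on chromosome X. Then came peaks of 1024 bp near Gm17459, of 1010 bp upstream of Hibadh, a gene of valine breakdown, and of 955 bp near Gm13788. A peak of 916 bp near Fat1, an atypical cadherin gene, overlapped an IgG peak. Others among the 10 widest lay near Olfr62 (893 bp), 1700001O22Rik (886 bp, with an IgG overlap) and Gm14412 (847 bp).

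On the chromosomes, 489 peaks lay on 1 to 19 and X, and 2 lay on unplaced sequence of chromosomes Y (score 108.8) and 8 (score 56.69). Chromosome 2 held 49 peaks, 10.0% of the 489 (Wilson 95% interval 7.66 to 13), where its gap-free length makes up 6.98% of the genome. Chromosome 6 held 42 peaks, 8.59% (6.42 to 11.4), against 5.72% of the length. On chromosome 11 there were 14 peaks, 2.86% (1.71 to 4.75), against 4.65% of the length. These 3 were picked from 20 chromosomes after their values were seen, and the intervals cover counting error only, as do all intervals here. Chromosome X held 25 peaks, 5.11% (3.49 to 7.44), against 2.75% of pool 2, 0.421% of pool 3, 2.39% of IgG and 6.34% of the genome's length. The share was higher than in pool 2 by 2.36 points, than in pool 3 by 4.69 points and than in IgG by 2.73 points (adjusted p = 0.0461, 1.42e-06 and 0.0200 by two-sided Fisher's exact tests, adjusted over 15 comparisons). At a score of 70 or more in every list none of these differences remained past the threshold, and that from pool 2 changed sign, to -1.21 points. These tests take peaks as units, and the spread between libraries is not covered by any of them. Peaks of X had words found elsewhere in mm9 more often than the whole list, a median of 31.9% of words against 14.5% over all 489 peaks; the part of this in the chromosome shares was not tested.

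**Figure D2:**
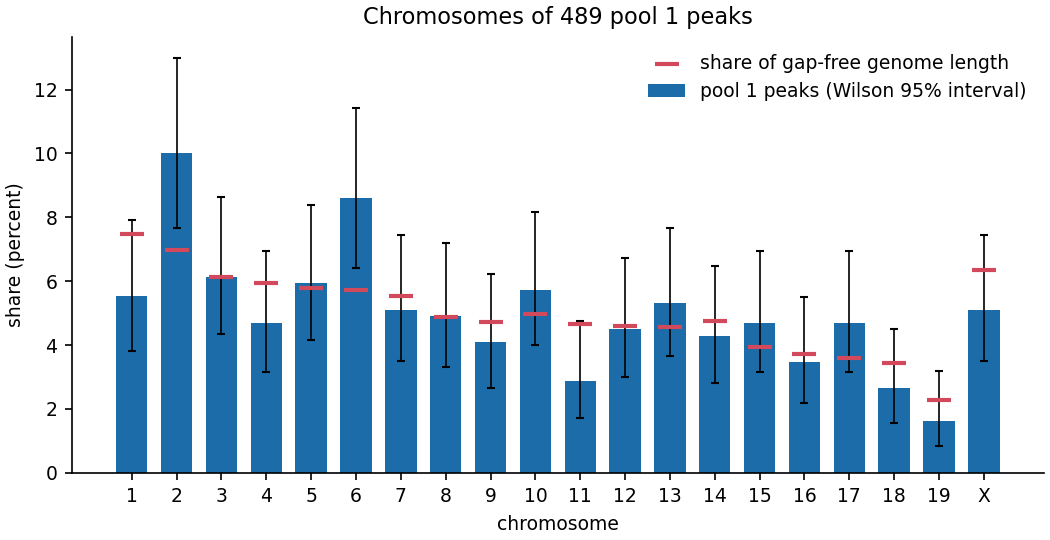
Share of the 489 placed pool 1 peaks on each chromosome (bars, percent, with Wilson 95% intervals) and that chromosome's share of the gap-free mm9 length (red marks). Chromosomes 2 (10.0% against 6.98%) and 6 (8.59% against 5.72%) stand above their length share, and X is at 5.11% against 6.34%.

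The median gap between centres of neighbouring peaks was 3.34 Mb, and 23 peaks had another pool 1 peak within 100 kb. No chance level was counted for these gaps. The closest pair lay 1242 bp apart, both upstream of Gng4, a G protein gamma subunit gene, within an intron of Lyst. Their scores were 70.97 and 58.38, and the stretch printed above, from the part shared with pool 2, is 1 unit repeated head to tail with few changes. In these peaks, 72.8% and 83.9% of the 32-base words occurred more than once within the peak itself. Lrrc4c, which encodes a synaptic adhesion protein that binds netrin-G1, was the nearest gene of 3 peaks, with scores of 64.47, 61.35 and 64.91 at 5.93, 28.5 and 64.1 kb from a start site, the last of which overlapped an IgG peak. Kcnd2, a potassium channel gene of neurons, held 2 intronic peaks, with scores of 56.2 and 67.66. Nxph1, which encodes neurexophilin, a secreted ligand of neurexins, was nearest to 2, an intronic peak with a score of 57.91 and a peak outside the gene with 70.67. The other protein-coding gene with 2 peaks was the gene model Gm17459. A pair of peaks was also nearest to each of Gm14266, Gm15160, AC124080.1, and to a copy each of 5S_rRNA, SNORA17, U1 and U6. In all, 12 of 476 nearest genes had more than 1 peak.

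Few peaks lay at start sites. Only 7 peaks had their centre within 1 kb of an annotated start, 1.43% (Wilson 95% interval 0.695 to 2.93), against 4.32% of pool 2, 3.37% of pool 3, 1.99% of IgG and 4.15% of all gap-free positions on the same chromosomes. These 7 lay 466 bp upstream of Ctss, the cathepsin S gene (score 83.27), 530 bp upstream of a start of Muc5ac, a mucin gene (82.39), 695 bp upstream of Cga, the gene of the glycoprotein hormone alpha subunit (73.57), and 840 bp inside Ttll11, a tubulin glutamylase-like gene (56.15). The remaining 3 were next to short RNA genes, SNORA68, 7SK and U6, with scores of 67.66, 65.04 and 57.81. The one at 7SK lay in an intron of Nkx2-2as, the antisense gene of the homeobox gene Nkx2-2. Within 10 kb of a start site the share was 23.9%, and its difference was 0.154 points from pool 2, -2.90 from pool 3 and 1.16 from IgG. None passed the test (adjusted p = 0.949, 0.385 and 0.694 by Fisher's exact test), with 95% intervals of the odds ratio of 0.775 to 1.31, 0.651 to 1.13 and 0.819 to 1.39, and those from pool 2 and IgG changed sign at a score of 70 or more (-2.74 and -2.13 points). All gap-free positions gave 27.4%.

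Inside genes lay 171 of 489 peaks, 35.0% (30.9 to 39.3), against 41.3% of positions. The difference from pool 3, which had 43.5%, was -8.57 points and passed the test (adjusted p = 0.0165, Fisher's exact test). From pool 2, with 37.4%, it differed by -2.46 points (adjusted p = 0.452), and from IgG, with 39.8%, by -4.79 points (adjusted p = 0.131, Fisher's exact test for both). At a score of 70 or more in every list the differences were -10.6 points from pool 2, -15.4 from pool 3 and -8.76 from IgG, of which that from pool 3 passed the test (adjusted p = 0.186, 0.0372 and 0.297, Fisher's exact test). Introns held 169 of these centres. The only centre in a coding exon belonged to Tmem50a, a membrane protein gene, on chr4:134456352-134456919 with a score of 57.61 and a CA repeat of 51 bp. Coding exons make up 1.40% of positions, which would place 6.85 of 489 centres there. The peaks that reached into a coding exon from an intron lay in Fgd3, 4930503E14Rik and Casp14, a caspase gene of the skin, with scores of 78.53, 67.81 and 57.71. The other exonic centre lay in the non-coding Gm17403, outside Amhr2 and 3.24 kb downstream of an annotated start of that gene. The nearest start site belonged to a protein-coding gene for 263 peaks (53.8%), against 60.2% of pool 2, 63.1% of pool 3, 61.6% of IgG and 60.2% of positions.

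**Figure D3:**
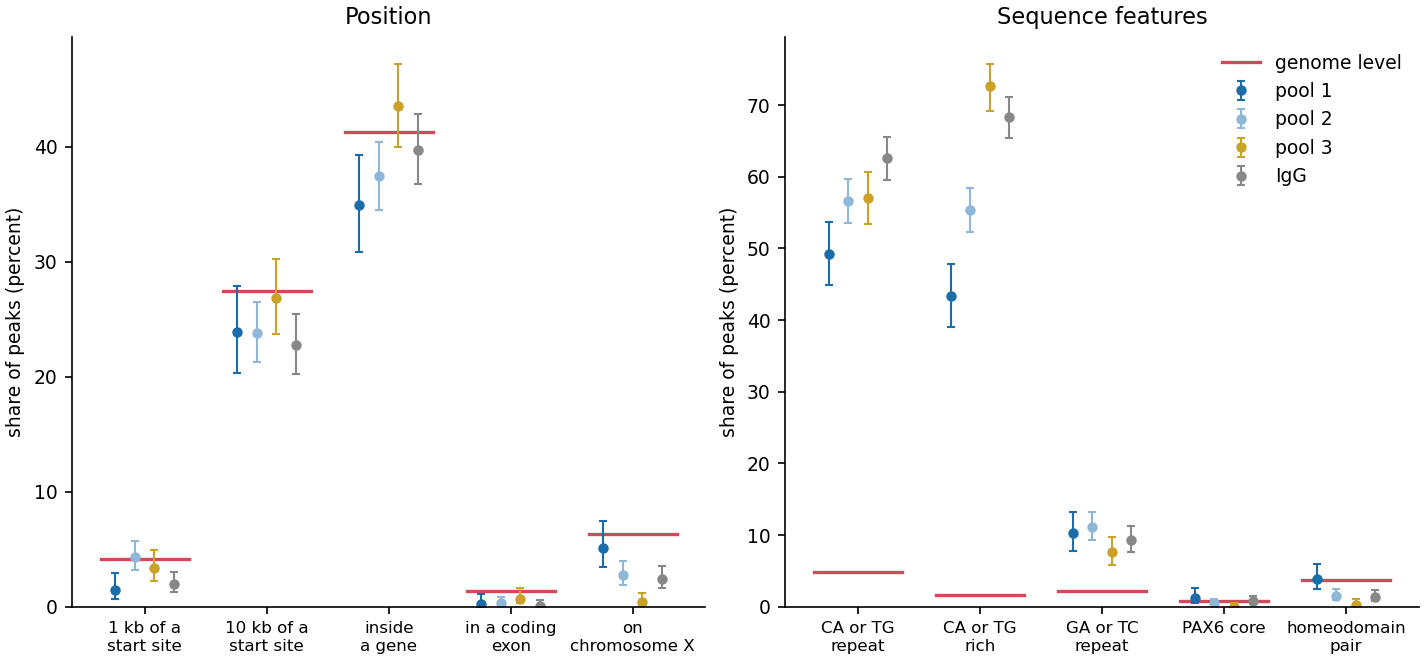
Share of peaks (percent, vertical axis) with each position or sequence feature in pool 1, pool 2, pool 3 and IgG, with Wilson 95% intervals. Red lines give the exact share over all gap-free placements on mm9 for the chromosomes and widths of pool 1. Start sites lie within 1 kb for 1.43% of pool 1 peaks but for 4.15% of placements, and CA or TG repeats are in 49.3% of pool 1 peaks but in 4.88% of placements.

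CA or TG repeats marked the list most. An uninterrupted repeat of at least 20 bp lay in 241 of 489 peaks, 49.3% (44.9 to 53.7), against 4.88% of all windows of the same widths on the same chromosomes, a 10.1-fold excess. At this repeat length the share was lower than in every other list. The difference was -7.40 points from pool 2 (56.7%), -7.74 from pool 3 (57.0%) and -13.3 from IgG (62.6%), with adjusted p = 0.0200, 0.0204 and 8.35e-06 by Fisher's exact test. At a score of 70 or more in every list these were -0.726, -3.82 and -10.7 points, and none passed the test (adjusted p = 0.913, 0.771 and 0.186, Fisher's exact test). Repeats of at least 30 bp gave -5.91 points from pool 2 and -0.841 from pool 3, and those of at least 12 bp gave -4.55 from pool 2, which did not pass either (adjusted p = 0.0655, 0.868 and 0.132, Fisher's exact test). Repeats of GA or TC were in 50 peaks (10.2%, against 2.18% of windows), and repeats of TA in 3 (0.613%, against 0.725%). The repeat often lay near the middle of the peak: its centre was within 100 bp of the peak's centre in 140 of 241 peaks (58.1%), where an even spread along each peak would give 47.2%. The longest, 75 bp, lay 156 kb from Tle3, a corepressor gene, in a peak that scored only 50.74. Next were repeats of 63 bp near Gm15501, 62 bp near Gm16263, and 57 bp in Synj2bp, in Nkx2-2as and in Lrrc4c, and scores with and without a repeat had medians of 62.4 and 61.3.

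Many repeats were broken. A stretch of 100 bp in which at least 60% of the base steps were those of a CA or TG repeat, as at Brd3 and close to this level at Pde3a (59.6%), lay in 212 peaks, 43.4% (39.0 to 47.8). Over all windows the share was 1.63%. The difference was -12.05 points from pool 2 (55.4%), -29.3 from pool 3 (72.6%) and -25.04 from IgG (68.4%), with adjusted p = 5.01e-05, 3.32e-23 and 2.75e-19 by Fisher's exact test. This measure was added after the sequences were seen. A perfect or broken repeat of this kind lay in 298 of 489 peaks.

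The peaks without such repeats included some with sequence found many times in the genome. In 175 peaks (35.8%) no tandem repeat with a unit of 1 to 6 bp reached 20 bp. Of these, 22 (12.6%) had at least 50% of their 32-base words present 100 or more times elsewhere in mm9. Over all 489 peaks this held for 27 (5.52%, 3.82 to 7.91), against 2.06% of pool 2, 8.01% of pool 3 and 1.69% of IgG. The peak near Auts2 on chr5:131982042-131982604 and that near Fpr-rs3 on chr17:20776764-20777375 shared 398 words, and their median word had 3610 and 2464 copies elsewhere. The peaks near Gm8775 and Pcdh10, far apart on chromosome 3, shared 318 words. All words of the Auts2, Gm8775 and Pcdh10 peaks, among others, occurred elsewhere. Their place and nearest gene may be uncertain, but the read length is not known here and this was not tested. Leaving out words of short tandem repeats, 73 of the 489 peaks shared at least 1 word with another.

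**Figure D4:**
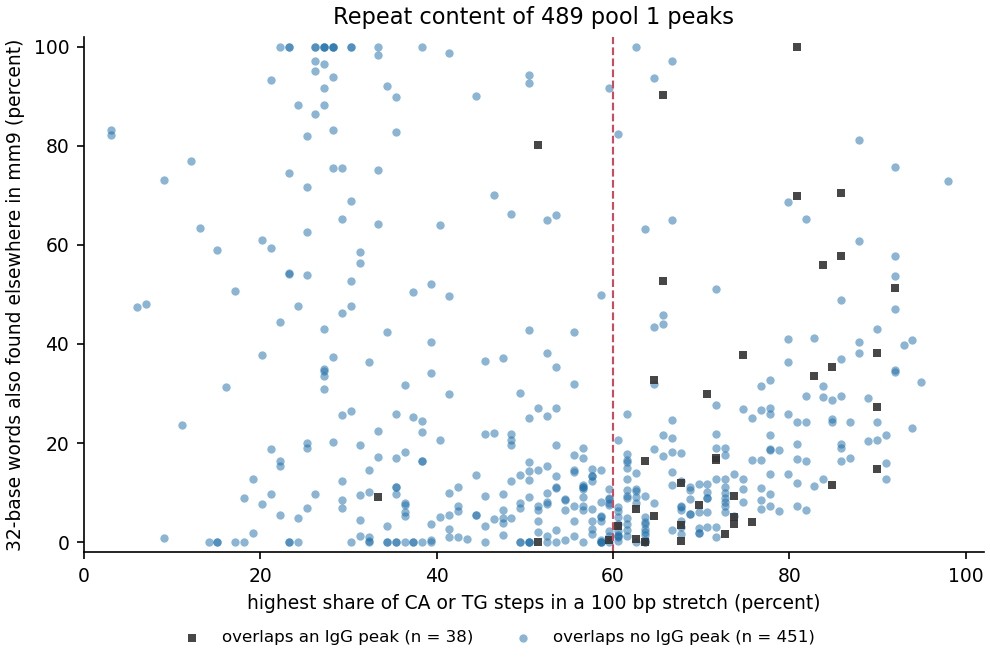
Each of 489 pool 1 peaks by its highest share of CA or TG steps in a 100 bp stretch (horizontal axis, percent) and the share of its 32-base words that occur elsewhere in mm9 (vertical axis, percent). Of the 38 peaks that overlap an IgG peak (dark squares), 34 stand right of the dashed line at 60%. At least 90% of words occur elsewhere for 2 of the 38 (5.26%), close to the 6.54% of all 489 peaks.

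The PAX6 paired-domain core TTCACGC, searched on both strands, was found in 6 of 489 peaks, 1.23% (0.564 to 2.65), against 0.803% of windows of the same widths. In pool 3, 0 of 712 peaks held it, which allows a share of up to 0.421% by a limit of 3 counts, and the difference passed the test (adjusted p = 0.0168, Fisher's exact test). That test takes no account of width, with medians of 496 bp in pool 1 and 367.5 bp in pool 3. It did not differ past the threshold from pool 2 (0.491%, adjusted p = 0.287, 95% interval of the odds ratio 0.636 to 10.5) or IgG (0.795%, adjusted p = 0.467, 0.440 to 5.12, Fisher's exact test for both). Within the central 200 bp, the same length in both lists, only 3 peaks held it, and the difference from pool 3, 0.613 points, did not pass the test (adjusted p = 0.126, Fisher's exact test). All 7 matches are shown on the plus strand, with the core or its reverse complement in capitals, because they are the places where the list holds the letters of the paired-domain core.
P4ha1, the first, chr10:58753442-58753478: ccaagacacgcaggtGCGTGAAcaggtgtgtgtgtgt
P4ha1, the second, chr10:58753498-58753534: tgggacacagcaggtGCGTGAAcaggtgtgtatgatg
Gm8775, chr3:4168862-4168898: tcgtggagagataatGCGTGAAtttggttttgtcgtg
U1, chr7:59638860-59638896: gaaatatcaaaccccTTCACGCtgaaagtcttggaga
Med4, chr14:73864409-73864445: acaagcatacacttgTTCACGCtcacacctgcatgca
Pcdh10, chr3:45384760-45384796: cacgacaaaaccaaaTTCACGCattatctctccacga
Robo1, chr16:72358302-72358338: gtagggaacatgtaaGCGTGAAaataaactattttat

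Of these peaks, that upstream of P4ha1, which encodes a subunit of the collagen prolyl hydroxylase, scored 80.89 and also held a GA or TC repeat of 40 bp and a CA or TG repeat of 31 bp. The stretches at Gm8775 and Pcdh10, a protocadherin gene, are the same 37 bases on opposite strands, and lie in peaks whose words all occur elsewhere in mm9. Robo1, which encodes an axon guidance receptor, lay 305 kb from its peak (score 50.93), and the peak near Med4 (score 53.4) overlapped an IgG peak. For the homeodomain, TAAT and ATTA 2 or 3 bases apart were in 19 peaks, 3.89% (2.50 to 5.99), against 3.74% of windows, 1.47% of pool 2, 0.281% of pool 3 and 1.39% of IgG. These shares of lists take no account of width, with medians of 496 bp in pool 1, 434.5 in pool 2, 367.5 in pool 3 and 431 in IgG. All placements would give 18.3 such peaks, so the 19 members are named as examples only. Among them were the peak near a U1 copy on chromosome 6 (80.89) and the intronic peak of Nxph1 that recurs in pool 2. Others were the peak in Nkx2-2as and an intron of Ntm, a cell adhesion gene of neurons.

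The methods of the study removed regions shared with IgG from its analysis, but the list as deposited still held them. IgG peaks overlapped 38 pool 1 peaks by at least 1 bp, where the exact mean over all placements was 0.185. This was 7.74% of pool 1, against 1.65% of pool 2 and 3.73% of pool 3. The IgG libraries carry the pool 1 label, and no source used here names the input they were set against, so the part of a shared pool or input in this overlap was not tested. In 37 of them the overlap covered at least 50% of both peaks, and its length ran from 250 to 874 bp. Those with the highest pool 1 scores included the peaks near Sall3 (104.81, IgG score 62.22), in Ddo (101.91, IgG 85.94), in Spock1 (95, IgG 209.19, the top of the IgG list) and in Arhgap15 (90.11, IgG 79.98). Peaks that overlapped IgG were 13.6% of the 103 placed peaks with a score of 70 or more, 5.65% of those from 60 to under 70 and 6.70% of those under 60. They held an uninterrupted CA or TG repeat in 18 of 38 cases, against 223 of 451 other pool 1 peaks, a difference of -2.08 points (adjusted p = 0.867, Fisher's exact test, odds ratio interval 0.446 to 1.89). By the broken repeat the same 38 stood out, with 34 of 38 (89.5%) against 178 of 451 (39.5%, Fisher's exact test, adjusted p = 3.31e-09, odds ratio 12.98, interval 4.52 to 51.2). For start sites within 10 kb (28.9% against 23.5%) and for positions inside genes (44.7% against 34.1%), the adjusted p-values were 0.651 and 0.647 (Fisher's exact test).

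Peaks of another pool overlapped 11 of the 491 peaks, 5 of pool 2 and 6 of pool 3, where all placements gave a mean of 0.185 and 0.126. Both of those near Habp4 and in an intron of Bcar3, whose nearest start is a U1 copy, also overlapped IgG, and no peak overlapped both pools. Scores of different lists are given side by side only, since they depend on each list's depth. With the score limit of 70 in every list, 2 such peaks were left, near Speer5-ps1 and Habp4. Brd3, which encodes a reader of acetylated histones, held its peak 1.75 kb from a start in an intron (score 69.33, and 113.72 in pool 3), and none of its 32-base words occurred elsewhere in mm9. The shared stretch is a broken GT repeat. Smad9, a mediator of BMP receptor signals, held an intronic peak of 552 bp with a score of 54.2, rank 395 of 491, while pool 2 had only 211 bp there with a score of 177.55, rank 29 of 1032. That stretch opens with a run of AAC units and holds no CA or TG repeat of 20 bp. At Speer5-ps1, a pseudogene, the peak scored 80.89 against 84.05 in pool 2, on the 46 bp repeat shown above. The peak at Gng4 scored 70.97 against 60.01 in pool 2, and that of Nxph1 57.91 against 95.92 in pool 2, 273 kb into the gene. The Habp4 peak scored 79.66 against 114.11 in pool 3, and that in Bcar3 52.37 against 66.07 in pool 3. Near Gm11448 the scores were 79.66 in pool 1 and 68.59 in pool 2. In an intron of Gm15997, 9.30 kb upstream of Wdr95, they were 60.47 in pool 1 and 53.95 in pool 3. Near Gm9376 they were 52.92 in pool 1 and 82.41 in pool 3, and near Gm13788 the pool 1 peak of 955 bp (52.23) covered parts of 2 peaks of pool 3 (79.43 and 51.92).

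**Figure D5:**
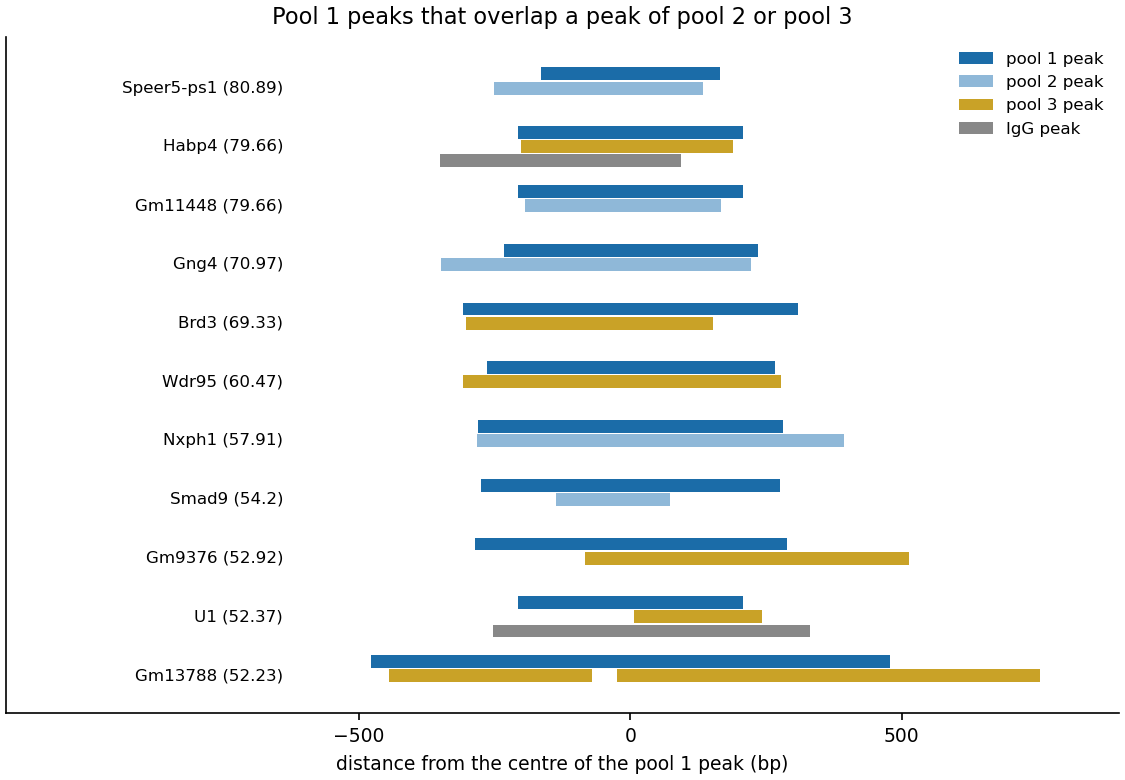
The 11 pool 1 peaks that overlap a peak of pool 2 or pool 3, by nearest gene with the pool 1 score in brackets, drawn as bars by distance from the centre of the pool 1 peak (bp). Smad9 shows the shortest partner, 211 bp in pool 2, and only Habp4 and the U1 copy also carry an IgG peak.

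Among genes, 835 of 22350 protein-coding genes (3.74%) had the centre of a pool 1 peak within 100 kb of a start site. Of 546 annotated genes in 16 lists of pathways and cell types, 29 did (5.31%). These lists were written with earlier results of these data known, so this count is a description only. It includes Smad9, which the study selected with these peaks, and Tgfb1, which the study took from its network analysis. Enteric neuron genes (0 of 23), glutamate and GABA receptor genes (0 of 47) and genes of gut mesenchyme and smooth muscle (0 of 17), interstitial cells of Cajal (0 of 6) and macrophages (0 of 7) had none. In the Hirschsprung disease list it was 3 of 30, Ednrb, Pspn and Tgfb1. The peak of Ednrb, the endothelin receptor B gene, lay 20.6 kb upstream, scored 64.47 and overlapped no IgG peak. It is 388 bp wide, and the part printed above was cut around its longest TG repeat, of 23 bp. Pspn, which encodes persephin, a relative of GDNF, was 49.6 kb from a peak that scored 58.99, nearer to Mllt1. Tgfb1, a growth factor gene, was 79.5 kb from a peak (63.88) that lay nearer to Axl and overlapped IgG. In the list of enteric precursors and glia Ednrb was the only gene, 1 of 22.

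Known PAX6 targets and partners had 3 of 29. Six3, an eye and forebrain homeobox gene, lay 35.6 kb from its peak (54.72), and Mitf, the pigment cell regulator, 71.2 kb (60.01). For Prox1, a homeobox gene of lens and lymph vessels, the peak at 12.3 kb scored 74.92 and overlapped an IgG peak with a score of 88.88. Collagens and laminins had 5 of 51. A peak with a score of 64.01 lay in the first part of Col4a5, 24.8 kb from its start and 26.2 kb from that of its neighbour Col4a6, which runs the other way, so both genes rest on the same peak. Col18a1 (8.34 kb, 59.63), Col13a1 (35.8 kb, 67.23) and Col15a1 (53.6 kb, 80.89) had theirs outside the gene. The TGF-beta and BMP list had 5 of 52, among them Smad9 and Tgfb1. Amhr2, the receptor of anti-Müllerian hormone, had its peak (57.81) outside the gene, 3.24 kb downstream of an annotated start. The others were Bmp15, an oocyte factor (21.3 kb, 64.47), and Fst, the activin antagonist follistatin (36.2 kb, 78.53).

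ERBB and MAPK signalling had 3 of 45. Ereg and Areg, neighbouring genes of EGF receptor ligands, shared a peak with a score of 52.9 that lay 1.75 kb upstream of Ereg and 66.8 kb from Areg. Braf, a kinase gene of this cascade, was 50.8 kb from a peak with a score of 94.62, rank 11, which lay nearer to Mrps33 and had none of its 32-base words elsewhere in mm9. Synaptic adhesion had 3 of 53, Cntn4 (53.03), Odz3 (67.3) and Cntnap4 (76.05), each with an intronic peak. Farther than 100 kb from a start of the gene, Cadm2 (57.21), Nxph1 (57.91) and Cntnap2 (61.47 and 63.53) of this list also held peaks in introns. Of the 32-base words of the Cntnap2 peak with 61.47, 86.5% occurred elsewhere in mm9. Axon guidance had 2 of 70. These were Ephb2, an ephrin receptor gene with an intronic peak at 21.9 kb (56.82), and Sema4f (80.6 kb, 53.4). The WNT list had 2 of 63, with Tcf7l1 (65.3 kb, 51.4) and the R-spondin gene Rspo4 (93.1 kb, 69.18). The list of cyclic nucleotide and diacylglycerol signalling had 2 of 44, the phosphodiesterase genes Pde1a (31.9 kb, 56.53) and Pde5a (86.5 kb, 65.04). Words found elsewhere made up 60.9% in the Pde5a peak and 51.1% in the Tcf7l1 peak. Gut epithelium had 2 of 12, Cdx2 (88.7 kb, 53.7) and Chga (90.2 kb, 59.2).

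Of 19 genes that the study selected as targets, 7 had a pool 1 peak within 100 kb, and since that selection used these peaks the count is a description only. Apart from Brd3, Gng4, Smad9, Speer5-ps1, Gm15997 and Wdr95, described above, it was Il10ra, the gene of the interleukin 10 receptor. Its peak scored 80.89 and lay in an intron 6.41 kb from a start, and its TG repeat of 20 bp ended at the edge of the peak. Nxph1, also among the 19, held its intronic peak (57.91) farther than 100 kb from a start. From the genes that the study took from its network analysis, Tgfb1 was the only one of 9.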

How the data were processed

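PAX6 ChIP, input and IgG libraries of EPCs were sequenced, aligned to mm9 by the authors with Bowtie and merged per pool, and peaks were called with MACS. Versions are not given in the sources used here. Each deposited list gives position and a score per peak, which the authors' peak caller gave as 10 times the negative log10 of its p-value. The lists hold no read counts, so depth is unknown and scores were ranked within each list only. Genes came from GENCODE M1 (37252 genes, 22350 protein-coding, on chromosomes 1 to 19 and X, mm9), and a peak was placed by its centre. Peaks were called overlapping from 1 bp.

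Chance levels were exact, with no random draw: the share of gap-free positions, or of gap-free windows of each peak's own width, on each peak's own chromosome. Shares carry Wilson 95% intervals. Pool 1 was compared with each other list by two-sided Fisher's exact tests with Benjamini-Hochberg adjustment over 15 comparisons, and IgG-overlapping with other pool 1 peaks over 3. Words of 32 bases were counted on both strands of the whole assembly. The counting functions were tested on simulated sequences. Python 3.11.15, NumPy 2.4.6, SciPy 1.17.1 and pysam 0.24.0 were used.

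Named were the 10 highest scoring and 10 widest peaks, the lowest ones, all that overlap pool 2 or 3, the 5 highest scoring with an IgG overlap, the longest repeats, those within 1 kb of a start site or over a coding exon, genes nearest to several peaks and list genes within 100 kb; 1 peak that this rule names is not reported here. Members and lists were chosen with earlier results of these data known, and the peaks named for the PAX6 sites, scores at the limits, list genes beyond 100 kb and shared words were picked after their values were seen, as was the measure of broken repeats. Alternatives covered the score limit, distances, gene types, repeat length, overlap and IgG-overlapping peaks. The comparison by tandem repeats of any unit of 1 to 6 bp was not planned.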

Additional observations from a re-analysis of the deposited data

How the results depend on the processing

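No paired analysis was possible because the libraries of each pool were merged into 1 list, and for the same reason no replicate could be left out. Limited to a score of 70 or more in every list, the difference on chromosome X was -1.21 points from pool 2, 0.599 from IgG and 1.54 from pool 3, the difference in CA or TG repeats was -0.726 from pool 2, -3.82 from pool 3 and -10.7 from IgG, and none passed the threshold. The same limit left 11 peaks that overlap IgG and 2 that overlap pool 2 or 3. With a repeat of at least 30 bp the difference was -5.91 from pool 2 and -0.841 from pool 3, with at least 12 bp it was -4.55 from pool 2, and with any tandem repeat it was -5.45 from pool 3, all short of the threshold. Broken repeats, added after the data were seen, turned the difference of IgG-overlapping from other pool 1 peaks to 50.0 points. The core in the central 200 bp differed by 0.613 from pool 3. For protein-coding genes only, the share inside genes differed from IgG by -5.78 points (Fisher's exact test, adjusted p = 0.0477). Over all 18 lists (566 genes), which include the genes that the study selected with these peaks, 35 genes had a peak within 100 kb, 23 within 50 kb and 13 inside the gene. The cause of these shifts was not tested. Near start sites the difference passed in no setting, and it changed sign from IgG at a score of 70 or more (-2.13 points) and within 5 kb (-0.238), and from pool 2 at a score of 70 or more (-2.74), within 5 kb (-0.869) and on chromosomes 1 to 19 (-0.246). All other differences tested under alternatives kept their sign and their side of the threshold. With no counts in the files, the depth of pool 1 is not known, and its part in the length of the list was not tested.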
